A study of Mus musculus with 12 samples.

Results

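Neat1, Malat1 and 5 genes for paraspeckle proteins (Sfpq, Nono, Pspc1, Rbm14 and Hnrnpk) were followed in mRNA-seq counts from primary mouse embryonic fibroblasts (MEFs). The 7 genes were taken by symbol from 37991 Ensembl identifiers, and all 7 were among the 15327 genes tested. They were chosen by name with earlier results of the same libraries known, so their values are given as a description, with intervals but without p-values, and whether one passed the threshold of the fit over all genes is stated as a description too. The MEFs came from FVB embryos at embryonic day 13.5 and were used at passage 3. They were either wild-type or homozygous for E2f1 3KR, a knock-in allele in which lysines of the transcription factor E2F1 that are acetylated after DNA damage are replaced by arginines. Each genotype was left untreated or given neocarzinostatin (NCS), a radiomimetic drug that breaks DNA, at 250 ng/ml for 3 h. The 4 groups, wild-type untreated, wild-type NCS, 3KR untreated and 3KR NCS, held 3 samples each. The knock-in is carried in every cell of the embryo, and the labels do not say how many embryos the samples of a group came from, so the spread between samples may be partly technical.

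Reads counted on genes numbered 33203757 to 45279321 in a library. The untreated wild-type libraries held 45279321, 37016067 and 36817729 reads, and the NCS-treated wild-type libraries 38106188, 42533960 and 39194405. The untreated 3KR libraries held 37094856, 36084015 and 41069406 reads, and the NCS-treated 3KR libraries 38041722, 33203757 and 37205651. Normalized counts of E2f1 itself ranged from 1042 to 1296 across the 6 wild-type and from 1111 to 1259 across the 6 3KR libraries, and gene counts cannot show the amino acid changes. Cdkn1a, the p53 target that encodes p21, had 17086, 17068 and 18008 normalized counts in untreated wild-type MEFs and 38955, 39929 and 39430.1 after NCS. Its values in 3KR MEFs were 9734, 9833 and 9882 untreated and 24800.3, 24533 and 25138 after NCS, so the libraries labelled NCS stood above their untreated counterparts in both genotypes.

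The genotypes also differed in sex-linked RNA. Xist had 32.3 to 62.5 normalized counts in wild-type and 30590.1 to 35635 in 3KR libraries, whereas the Y-linked Ddx3y had 5370.3 to 5822 in wild-type and 7 to 16.2 in 3KR libraries. Sex and genotype therefore cannot be told apart in any comparison between genotypes. Fibroblast markers summed to 1621156 to 1746423 normalized counts in wild-type and 1894018 to 1976831 in 3KR libraries, with Col1a1 the most abundant and none of the 9 at the floor of 3 counts. The 8 macrophage markers summed to 3320 to 4191 in wild-type and 6233 to 6914 in 3KR libraries, with Lyz2 the most abundant, none at the floor and 7 of 8 higher in 3KR with and without NCS. The 6 Schwann and neural crest markers summed to 4786 to 5016 in wild-type and 813.7 to 1008 in 3KR libraries, with none at the floor and 4 of 6 lower in 3KR with and without NCS. Of all tested genes, 22.1% passed the threshold as higher and 23.6% as lower in 3KR without treatment, and 22.9% and 23.6% after NCS. With NCS in 3KR MEFs, 5 of 9 fibroblast markers were lower and 1 higher (median -0.13 on the log2 scale), whereas in wild-type MEFs 4 were higher and 1 lower (median 0.07). Over all tested genes NCS raised 15.8% and lowered 15% in 3KR MEFs, and raised 14.3% and lowered 12.4% in wild-type MEFs. In 3KR MEFs NCS lowered 2 of 6 Schwann and neural crest markers and raised Acta1, a muscle marker, by 0.38. Acta1 was the only 1 of the 3 listed muscle markers that was tested, and Myod1 and Myog were not. Between genotypes Acta1 was lower in 3KR, by -0.62 untreated and -0.23 after NCS. Of 3 epithelial markers tested, 2 were higher and 1 lower in 3KR in both states, at medians of 2.33 and 1.64, and the 4 listed summed to 85.08 to 99.57 normalized counts in wild-type and 89.95 to 121.9 in 3KR libraries, with Krt18 the most abundant and none at the floor. The mitochondrial share of reads was 1.81% to 1.84% in untreated and 1.97% to 2.02% in NCS-treated 3KR libraries, against 1.87% to 1.9% and 1.82% to 1.96% in wild-type libraries. The part of these cells and of the mitochondrial share in the results below was not tested. In bulk RNA, fewer cells of a type and less RNA per cell cannot be told apart.

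Neat1 is a nuclear long noncoding RNA on which paraspeckles, ribonucleoprotein bodies beside nuclear speckles, are built. Its gene gives a short polyadenylated transcript and a long one, and the long one carries the body. SFPQ, NONO and PSPC1 form the DBHS family of RNA-binding proteins that coat the Neat1 RNA, RBM14 is a further component needed to assemble the body, and HNRNPK favours the long transcript by hindering 3′ end processing of the short one. Malat1, the neighbouring gene, gives an abundant nuclear RNA that gathers in nuclear speckles, the bodies that store splicing factors. The long Neat1 transcript and Malat1 are matured not by polyadenylation but by RNase P, which cuts upstream of a tRNA-like element and leaves an A-rich tract at the 3′ end that folds back on U-rich motifs as a triple helix.

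Both RNAs lie on the minus strand of chromosome 19. In GENCODE release M21 (GRCm38), Neat1 (ENSMUSG00000092274) spans chr19:5824708-5845478 and Malat1 (ENSMUSG00000092341) spans chr19:5795690-5802672, with 22035 bases between them. The longest Neat1 transcript, Neat1-201, is a single exon of 20771 bases. The short transcript, Neat1-202, has 2 exons and 3004 bases. Its span lies within that of Neat1-201 at the 5′ end, so a count per gene cannot separate them. The annotation release used for the counting is not given, so whether the counts cover the whole of Neat1-201 is not known. The libraries were made with a stranded kit that selects poly(A) RNA, and how much of the nonpolyadenylated transcript it kept was not measured. The 3′ ends are shown because they distinguish the forms that poly(A) selection can take up from those that end in a genome-encoded A-rich tract. Capitals mark either AATAAA, the polyadenylation signal, or the run shared at the end of both A-rich tracts.

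Neat1-201, 3′ end, chr19:5824708-5824807, minus strand: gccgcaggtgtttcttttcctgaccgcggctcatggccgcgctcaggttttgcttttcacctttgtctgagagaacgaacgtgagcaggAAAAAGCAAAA
Malat1-201, A-rich tract, chr19:5795982-5796081, minus strand: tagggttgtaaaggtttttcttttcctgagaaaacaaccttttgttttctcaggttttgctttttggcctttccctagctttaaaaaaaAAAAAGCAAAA
Neat1-202, 3′ end, chr19:5842307-5842366, minus strand: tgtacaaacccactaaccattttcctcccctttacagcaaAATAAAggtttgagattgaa
Malat1-201, annotated 3′ end, chr19:5795690-5795749, minus strand: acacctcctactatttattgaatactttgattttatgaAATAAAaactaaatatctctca

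The 2 windows of 100 bases that end in the A-rich tract shared runs of 16 bases (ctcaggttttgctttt), 13 bases (tttcttttcctga) and 11 bases (aaaaagcaaaa), and the U-rich runs came in the same order in both. The run marked in capitals occurred 1 time in Neat1-201 and 1 time in Malat1-201 and 0 times in Neat1-202. Neat1-202 instead held AATAAA in its last 60 bases, as did the annotated end of Malat1-201, which lies beyond the A-rich tract.

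Neat1 was higher after NCS in 3KR MEFs, whereas the treated and untreated wild-type samples overlapped, and this contrast was one of the results known when the genes were chosen. Untreated wild-type MEFs had 13260.3, 13417 and 12332 normalized counts of Neat1, and untreated 3KR MEFs had 13321, 13185 and 13326. After NCS, wild-type MEFs had 12439, 12249 and 13246 and 3KR MEFs had 19138, 18850.0 and 19371. The 3 NCS-treated 3KR samples stood above all 9 others, whose values overlapped.

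In 3KR MEFs the NCS samples were 1.44-fold above the untreated ones, a log2 difference of 0.53 with a standard error (SE) of 0.03 and a 95% interval from 0.46 to 0.60. In wild-type MEFs the difference was -0.04 (SE 0.03, 95% interval -0.11 to 0.03). The response in 3KR exceeded that in wild-type by 0.57 on the log2 scale (SE 0.05, 95% interval 0.47 to 0.67). Between genotypes, Neat1 differed by 0.02 without treatment (SE 0.03, 95% interval -0.05 to 0.09) and by 0.60 after NCS (SE 0.03, 95% interval 0.53 to 0.67), which is a 51.2% higher level in 3KR. The comparison between genotypes after NCS and that of NCS in 3KR share the 3 NCS-treated 3KR samples. Across 20 alternative settings the difference after NCS ranged from 0.58 to 0.64 and the NCS difference in 3KR from 0.48 to 0.54. The NCS difference in wild-type was -0.12 without the wild-type samples numbered 3 and then passed the threshold as lower, as it did at -0.08 without the untreated one alone. Of all tested genes, 5.17% had an NCS difference in 3KR as high as that of Neat1 or higher, and 4.18% had a difference in response as high or higher.

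**Figure D1:**
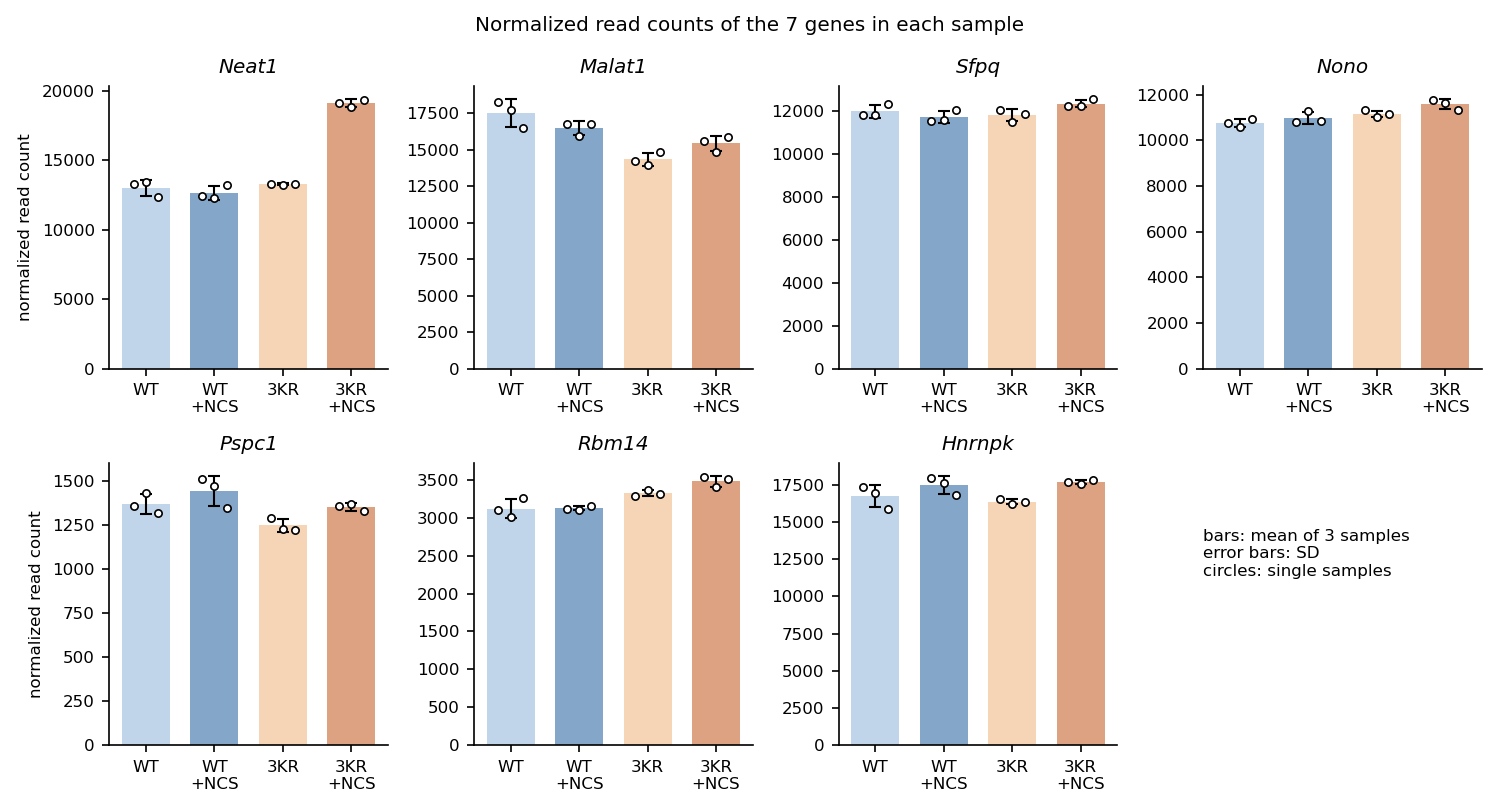
Normalized read counts of the 7 genes (y axis, linear from 0) in wild-type (WT) and 3KR MEFs with and without NCS, with bars for the mean of 3 samples, error bars for the SD and circles for single samples. Neat1 stands at 18850.0 to 19371 in NCS-treated 3KR samples and at 12249 to 13417 in the other 9, while Malat1 is lower in 3KR than in wild-type samples.

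Malat1 was lower in 3KR than in wild-type MEFs. The untreated wild-type samples had 18311, 17749 and 16476 normalized counts and the untreated 3KR samples had 14209, 13984 and 14834, with no overlap. After NCS the wild-type samples had 16763, 15912 and 16736 and the 3KR samples had 15621, 14829 and 15846, again without overlap. The genotype difference was -0.29 on the log2 scale without treatment (SE 0.04, 95% interval -0.37 to -0.22), a change of -18.4%. After NCS it was -0.09 (SE 0.04, 95% interval -0.17 to -0.02).

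The smaller gap after NCS came with differences of opposite sign in the genotypes. NCS differed from no treatment by -0.09 in wild-type (SE 0.04, 95% interval -0.17 to -0.02) and by 0.11 in 3KR MEFs (SE 0.04, 95% interval 0.03 to 0.19), and in both genotypes the treated and untreated ranges overlapped. The response in 3KR exceeded that in wild-type by 0.20 (SE 0.05, 95% interval 0.09 to 0.31). This difference ranged from 0.17 to 0.25 over 19 alternatives and passed the threshold in 12 of them. It was lost, at 0.17 to 0.19, without untreated wild-type sample 1 or 2, NCS-treated wild-type sample 2, untreated 3KR sample 1 or 2, or NCS-treated 3KR sample 1 or 3. The untreated genotype difference passed in all 20 alternatives, at -0.34 to -0.26, whereas the one after NCS passed in 12 of 20, being lost without NCS-treated wild-type sample 1 or 3, 3KR sample 1 or 2 of either treatment, and 2 further settings. The NCS difference in wild-type, which did not pass as reported, passed in 7 of 20 alternatives. These were the replicate block (-0.09, SE 0.03), scaling by library total (-0.14), no filter on low counts (-0.09), a minimum of 10 counts (-0.11), and leaving out untreated wild-type sample 3 (-0.13), NCS-treated wild-type sample 3 (-0.11) or both (-0.15). Scaling by library total took the NCS difference in 3KR to 0.06, under the threshold. Leaving out untreated 3KR sample 1 or 2 or NCS-treated 3KR sample 1 or 3 also took the NCS difference in 3KR, at 0.09 to 0.10, under the threshold.

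The ratio of Neat1 to Malat1 reads within a library does not depend on scaling. It was 0.724, 0.756 and 0.748 in untreated wild-type MEFs and 0.742, 0.770 and 0.791 after NCS. In 3KR MEFs it was 0.938, 0.943 and 0.898 untreated and 1.225, 1.271 and 1.222 after NCS. All 6 3KR libraries lay above all 6 wild-type libraries, and Neat1 reads outnumbered Malat1 reads in the 3 NCS-treated 3KR libraries but in none of the other 9. Both genes enter the ratio, and untreated 3KR libraries differed from wild-type through Malat1, since their Neat1 ranges overlapped.

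**Figure D2:**
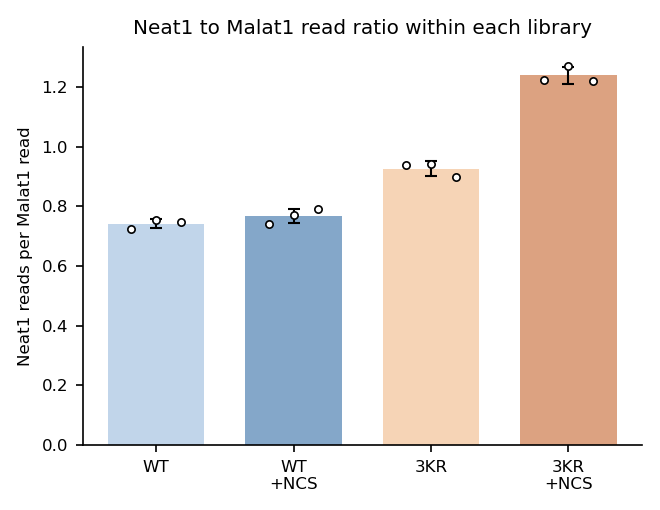
Neat1 reads per Malat1 read (y axis, linear from 0) in each library, with bars for the mean of 3 samples, error bars for the SD and circles for single samples. Wild-type libraries lie between 0.724 and 0.791, untreated 3KR libraries between 0.898 and 0.943 and NCS-treated 3KR libraries between 1.222 and 1.271.

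The log2 differences of the DBHS genes stayed between -0.14 and 0.12 in all comparisons. Sfpq (ENSMUSG00000028820), on chromosome 4, had 11805, 11778 and 12321 normalized counts in untreated and 11528, 11543 and 12036 in NCS-treated wild-type MEFs. The 3KR values were 12027, 11494 and 11838 untreated and 12236, 12222 and 12521 after NCS. The NCS-treated 3KR samples lay above both the untreated 3KR and the NCS-treated wild-type samples, by 0.07 (SE 0.03, 95% interval 0.00 to 0.13) and 0.08 (SE 0.03, 95% interval 0.01 to 0.14) on the log2 scale. The first of these did not pass the threshold, and scaling by library total took it to 0.02. It passed in 4 of 20 alternatives, including the replicate block (0.07, SE 0.02) and the fit of the 6 samples compared (0.06, SE 0.02). The response in 3KR minus that in wild-type was 0.10 (SE 0.04, 95% interval 0.01 to 0.19), which did not pass as reported and passed with the replicate block (SE 0.03) and without both wild-type samples numbered 3. The second passed in 10 of 20 alternatives, and among the settings that left out 1 library it passed only without untreated or NCS-treated wild-type sample 3.

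Nono (ENSMUSG00000031311), the X-linked member, had 10768, 10607 and 10927 normalized counts in untreated wild-type and 11318, 11044 and 11157 in untreated 3KR MEFs. After NCS the values were 10795, 11292 and 10869 in wild-type and 11769, 11629 and 11354 in 3KR. The 3KR samples lay above wild-type in both states without overlap, by 0.05 untreated, which did not pass (SE 0.03, 95% interval -0.01 to 0.11), and 0.08 after NCS (SE 0.03, 95% interval 0.01 to 0.14). The latter passed in 13 of 20 alternatives and was lost without NCS-treated wild-type sample 1 or 3, any untreated 3KR sample, or NCS-treated 3KR sample 1 or 2. The NCS difference in wild-type was 0.03 and turned to -0.02 with scaling by library total. In 3KR MEFs it was 0.05 (SE 0.03, 95% interval -0.01 to 0.12) without overlap, which did not pass as reported and passed in 2 of 20 alternatives.

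Pspc1 (ENSMUSG00000021938) was the least abundant of the 7. It had 1363, 1435 and 1322 normalized counts in untreated wild-type and 1293, 1232 and 1225 in untreated 3KR MEFs, a log2 difference of -0.14 (SE 0.05, 95% interval -0.25 to -0.04) with no overlap. It passed in 16 of 20 alternatives and was lost with no filter on low counts and without untreated wild-type sample 2 or untreated 3KR sample 2 or 3. After NCS it had 1513, 1475 and 1350.3 in wild-type and 1363, 1374 and 1329.6 in 3KR, which overlapped. The NCS difference in 3KR was 0.12 (SE 0.05, 95% interval 0.01 to 0.22) without overlap, and that in wild-type was 0.07 (SE 0.05, 95% interval -0.03 to 0.17) with overlap. The first did not pass as reported and passed in 3 of 20 alternatives, with the replicate block, in the fit of the 6 samples compared and without both wild-type samples numbered 3 (0.12 and SE 0.04 in each). Pspc1 was thus the DBHS gene that passed the threshold in untreated 3KR MEFs, while the difference of Nono did not pass and the Sfpq ranges overlapped. Of the summed DBHS counts in a library, Sfpq gave 47.5% to 50.1%, Nono 44.5% to 46.5% and Pspc1 5.06% to 6.35%.

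Rbm14 (ENSMUSG00000006456), which also lies on chromosome 19, had 3099, 3009 and 3257 normalized counts in untreated wild-type and 3292, 3365 and 3319 in untreated 3KR MEFs. After NCS it had 3120, 3101 and 3152 in wild-type and 3534, 3402 and 3511 in 3KR MEFs. The 3KR samples were higher in both states without overlap, by 0.09 untreated (SE 0.04, 95% interval 0.01 to 0.16) and 0.16 after NCS (SE 0.04, 95% interval 0.08 to 0.23). The latter passed the threshold in all 20 alternatives, and the former, which did not pass, did so in 7 of them. The NCS difference in wild-type MEFs was -0.00 (SE 0.04) and ranged from -0.05 to 0.03 over the alternatives. In 3KR MEFs it was 0.07 (SE 0.04, 95% interval -0.00 to 0.14) without overlap, and passed neither as reported nor in any alternative.

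Hnrnpk (ENSMUSG00000021546), on chromosome 13, was the one protein gene of the 5 past the threshold for NCS in 3KR MEFs in the fit as reported, although the difference of Pspc1 was of similar size. It had 17399, 16967 and 15912 normalized counts in untreated and 18004, 17664 and 16798 in NCS-treated wild-type MEFs. The 3KR values were 16579, 16237 and 16339 untreated and 17674, 17537 and 17815 after NCS, a log2 difference of 0.11 (SE 0.03, 95% interval 0.04 to 0.18) without overlap. This passed in 17 of 20 alternatives and was lost with scaling by library total (0.07) and without untreated 3KR sample 2 or NCS-treated 3KR sample 3. In wild-type MEFs NCS differed by 0.06 (SE 0.03, 95% interval -0.01 to 0.13) with overlap, and the differences of Hnrnpk between genotypes were -0.04 untreated and 0.02 after NCS. The untreated one did not pass as reported. It passed at -0.07 without untreated wild-type sample 3, and without both wild-type samples numbered 3. With the replicate number as a block, the NCS difference in wild-type passed the threshold at 0.06 (SE 0.02). Both wild-type samples numbered 3 were the lowest of their group.

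**Figure D3:**
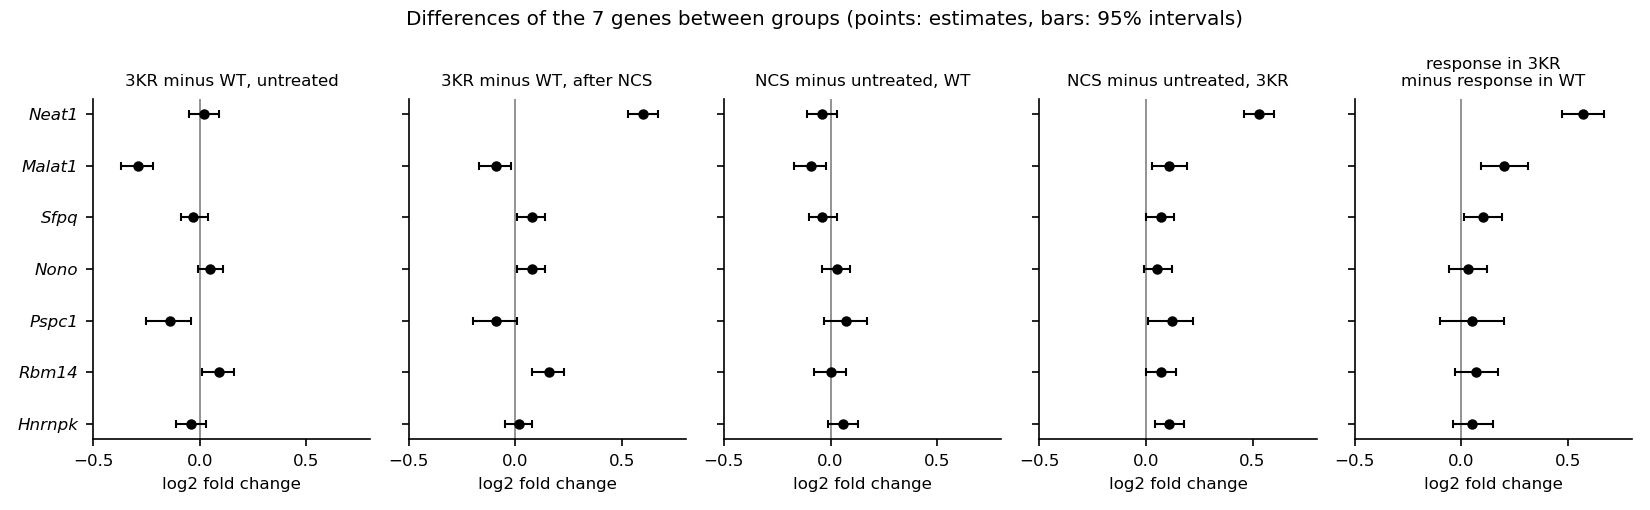
Log2 fold changes of the 7 genes (x axis) in the 4 comparisons between groups and in the difference between the NCS responses of the genotypes, with points for the estimates and bars for 95% intervals. Neat1 stands at 0.60, 0.53 and 0.57 in the 3 panels that involve NCS-treated 3KR MEFs, and the estimates of the 5 protein genes stay between -0.14 and 0.16 in every panel.

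Counted at a false discovery rate (FDR) of 0.05 across all genes, 2 of the 7 were lower in untreated 3KR than in wild-type MEFs (Malat1 and Pspc1) and 5 did not pass, against 22.1% of all tested genes higher and 23.6% lower. After NCS, 4 were higher (Neat1, Rbm14, Nono and Sfpq) and 1 lower (Malat1), against 22.9% and 23.6% of all genes. For NCS in wild-type MEFs none of the 7 passed in edgeR or in the Wald test of DESeq2, against 14.3% higher and 12.4% lower, although the 95% interval of Malat1 lay below 0. With the replicate block 2 passed (Malat1 and Hnrnpk), and of all 15327 genes 2828 were higher and 2411 lower. For NCS in 3KR MEFs 3 were higher (Neat1, Hnrnpk and Malat1), against 15.8% higher and 15% lower. With the block 5 passed, which added Sfpq and Pspc1, and of all 15327 genes 3039 were higher and 2762 lower. For the difference in response 2 were higher (Neat1 and Malat1), against 1.86% higher and 1.87% lower. With the block 3 were higher, which added Sfpq, and of all 15327 genes 751 were higher and 628 lower. These shares are given beside the members as background only, since the members were chosen with the contrasts known. Of the genes called for NCS, 53.5% were higher in wild-type and 51.2% in 3KR MEFs, and scaling by library total moved these to 33.7% and 34.4%.

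Levels can be set between genes only per length. Per kilobase of all annotated exons, untreated wild-type MEFs had 2592 ± 118 normalized counts of Hnrnpk (SD, n = 3), 2523 ± 64.5 of Sfpq, 2508 ± 135 of Malat1 and 2461 ± 36.5 of Nono, and neighbours in this order differed by less than the larger of their SDs. Rbm14 followed at 798 ± 32.1, Neat1 at 626 ± 28.2 and Pspc1 at 240 ± 10.1. The order depends on the length assumed. Per kilobase of the longest transcript of each gene, the same samples had 5643 ± 258 normalized counts of Hnrnpk, 4203 ± 62.3 of Nono, 3454 ± 88.3 of Sfpq and 2508 ± 135 of Malat1, which differed beyond their SDs and put Malat1 last of the 4. For Neat1, the level over all 12 samples was 699 per kilobase of the union of its exons and 4831 per kilobase of Neat1-202. These lengths come from an annotation that may not be the one used for the counting. How much Malat1 and long Neat1 RNA the poly(A) selection kept was not measured. Their places beside the protein genes are therefore an order of reads and not of RNA levels.

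Over the 12 samples Neat1 correlated with Rbm14 at r = 0.77, with Nono at 0.73, with Sfpq at 0.67, with Hnrnpk at 0.45 and with Pspc1 at -0.08 on log2 CPM, the counts scaled to library size. Malat1 correlated with Pspc1 at 0.61, with Rbm14 at -0.63 and with Neat1 at -0.22. The 12 points share the 4 groups, so these values restate the differences between groups and are a description. Of 9602 genes compared, those whose log2 CPM followed Neat1 most closely over the 12 samples were Nfil3, a bZIP repressor, at r = 0.965, Hnrnpa3, an RNA-binding protein gene, at 0.964 and Rnd1, a small GTPase gene, at 0.951. Their differences after NCS in 3KR were 0.28, 0.17 and 0.41. Malat1 was followed most closely by Serf2 at 0.956, Arfip1 at 0.943 and Fubp1 at 0.937, with untreated genotype differences of -0.27, -0.21 and -0.27.

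None of the 5 neighbouring genes given here passed the threshold for the difference in response (edgeR FDR 0.77 to 0.985). Frmd8, a FERM domain gene on the same strand 4224 bases upstream of Neat1, rose with NCS in both genotypes, from 4014 ± 91.1 to 5672 ± 175 normalized counts in wild-type and from 3169 ± 119 to 4534 ± 16.7 in 3KR MEFs (SD, n = 3). The log2 changes were 0.49 (SE 0.03, edgeR FDR 1.13e-10) and 0.52 (SE 0.04, edgeR FDR 6.4e-11), and their difference of 0.02 (SE 0.05) did not pass (edgeR FDR 0.864). Frmd8 was lower in 3KR by -0.35 untreated and -0.32 after NCS. Slc25a45 was higher in 3KR by 0.55 and 0.64, at a mean of 103 normalized counts, and Tigd3, at 16.9, did not pass in any comparison. On the side of Malat1, Ltbp3 was lower in 3KR by -0.20 in both states, with log2 changes by NCS of 0.07 and 0.06 that did not pass, and Sssca1 passed in no comparison.

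**Figure D4:**
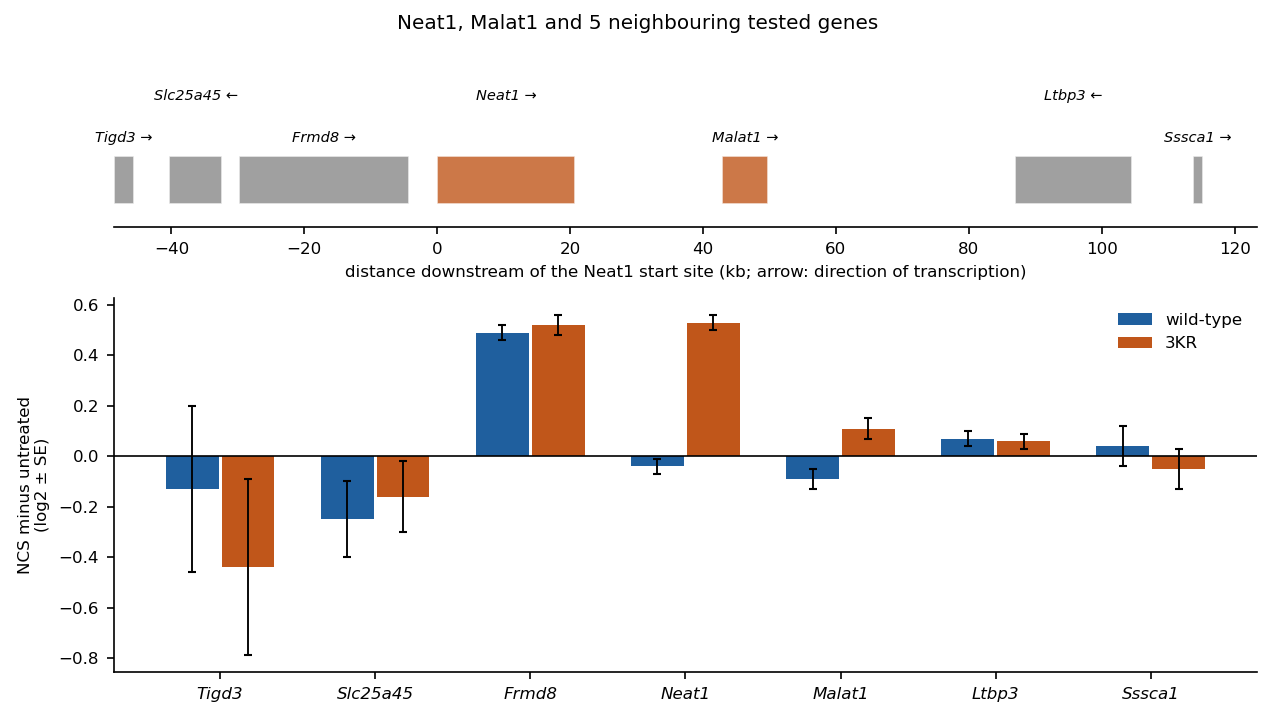
Top, Neat1, Malat1 and 5 neighbouring tested genes by distance from the Neat1 start site (x axis, kb), with arrows for the direction of transcription. Bottom, log2 difference between NCS and no treatment (y axis, bars with SE) in wild-type and 3KR MEFs, where Frmd8 stands near 0.5 in both genotypes, at 0.49 and 0.52, and Neat1 at -0.04 and 0.53.

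E2F1 binds DNA with its partner DP at sites that include TTTGGCGC and TTTCCCGC, and no other form was searched. In RefSeq promoters (GRCm38.p6), taken as the window around each gene start and searched on both strands, TTTGGCGC occurred in 169 of 32851 (0.514%) and TTTCCCGC in 351 (1.07%). Neither was found in the 6 members with a promoter entry, Malat1, Sfpq, Nono, Pspc1, Rbm14 and Hnrnpk, which says only that these letters are not in these windows. Neat1 had no promoter entry and was not searched.

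The other paraspeckle proteins were taken from a list of 32 genes, all tested. In untreated MEFs 7 were higher and 6 lower in 3KR (21.9% and 18.8%, against 22.1% and 23.6% of all tested genes), at a median log2 difference of 0.01. After NCS 17 were higher and 5 lower (53.1% and 15.6%, against 22.9% and 23.6%), at a median of 0.11 against 0.004 for all genes. Taf15, a FET family protein, was higher by 0.29 untreated and 0.36 after NCS (edgeR FDR 1.05e-07). Dazap1 was higher by 0.10 and 0.20 and Hnrnpm by 0.12 and 0.17, while Mex3a was lower by -0.43 and -0.40 and Rbm12 by -0.28 and -0.26. Fign, a microtubule-severing enzyme gene, was lower by -0.45 untreated and -0.78 after NCS (edgeR FDR 7.36e-06). Hnrnpr was higher by 0.19 and 0.17 and Hnrnpul1 by 0.15 and 0.11, and Fam98a was lower by -0.15 and -0.10.

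NCS raised 5 and lowered 6 of the 32 in wild-type MEFs (15.6% and 18.8%, against 14.3% and 12.4% of all tested genes), and raised 11 and lowered 7 in 3KR MEFs (34.4% and 21.9%, against 15.8% and 15%). With scaling by library total it raised 4 and lowered 11 in wild-type and raised 9 and lowered 9 in 3KR MEFs. That scaling gave 1464 raised and 2885 lowered of all 15327 genes in wild-type, and 1718 raised and 3275 lowered in 3KR MEFs. Rbm12 rose by 0.32 and 0.34 in wild-type and 3KR MEFs, and Dlx3, a homeobox gene, by 1.42 (SE 0.30) and 1.29 (SE 0.35). Dlx3 counts were low, at means of 15.7 untreated and 42.4 after NCS in wild-type, and 11.2 and 27.6 in 3KR MEFs. In wild-type and 3KR MEFs, Srsf10 changed by -0.30 and -0.18, Akap8l by -0.37 and -0.25, Tardbp by -0.21 and -0.09 and Hnrnpr by -0.15 and -0.16. Ewsr1 rose by 0.20 and Fign changed by -0.59 in 3KR MEFs, and their values in wild-type, 0.07 and -0.26, did not pass. Their differences in response, 0.13 and -0.33, did not pass either (edgeR FDR 0.0738 and 0.311). For the difference in response 2 of the 32 passed the threshold, both higher (6.25%, against 1.86% higher and 1.87% lower of all tested genes). One was the X-linked Rbmx, at 0.24 (edgeR FDR 0.0239), which was lost in 6 of 19 alternatives.

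Genes of nuclear speckle proteins, where Malat1 RNA gathers, numbered 25. Without treatment 3 were higher and 4 lower in 3KR (12% and 16%, against 22.1% and 23.6% of all tested genes). With scaling by library total 6 were higher and 4 lower, while 3721 of all 15327 genes were higher and 3352 lower. After NCS 9 were higher (36%, against 22.9%) and 16 did not pass, at a median log2 difference of 0.09. Srsf2 was higher by 0.51, Srsf7 by 0.22 and Srsf1 by 0.18 after NCS. Untreated 3KR MEFs had higher Srsf4 (0.26), Tra2b (0.15) and Srrm2 (0.10) and lower Pnn (-0.18), Srsf5 (-0.17) and Rbm25 (-0.14). The Srrm2 call was lost without untreated wild-type sample 1 or 2. NCS raised 3 and lowered 6 in wild-type MEFs (12% and 24%, against 14.3% and 12.4% of all tested genes), and raised 8 and lowered 5 in 3KR MEFs (32% and 20%, against 15.8% and 15%). With scaling by library total 5 were raised and 10 lowered in 3KR, and 2 raised and 11 lowered in wild-type MEFs. Calls over all 15327 genes also moved, to 1718 raised and 3275 lowered in 3KR, and 1464 raised and 2885 lowered in wild-type MEFs. The splicing factor kinase genes Clk3 and Clk1 rose in both genotypes, by 0.54 and 0.19 in wild-type and by 0.40 and 0.33 in 3KR MEFs, whereas Srsf7 changed by -0.34 and -0.22 and Acin1 by -0.19 and -0.14. Srsf1 changed by -0.19 and -0.08 and Srsf3 by -0.21 and -0.20 in wild-type and 3KR MEFs. Srsf5, a splicing factor gene, changed by 0.08 in wild-type (edgeR FDR 0.045) and 0.35 in 3KR MEFs, and the difference of 0.26 (SE 0.04, edgeR FDR 0.000626) passed in all 19 alternatives. The change in wild-type was lost in 15 of 20.

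**Figure D5:**
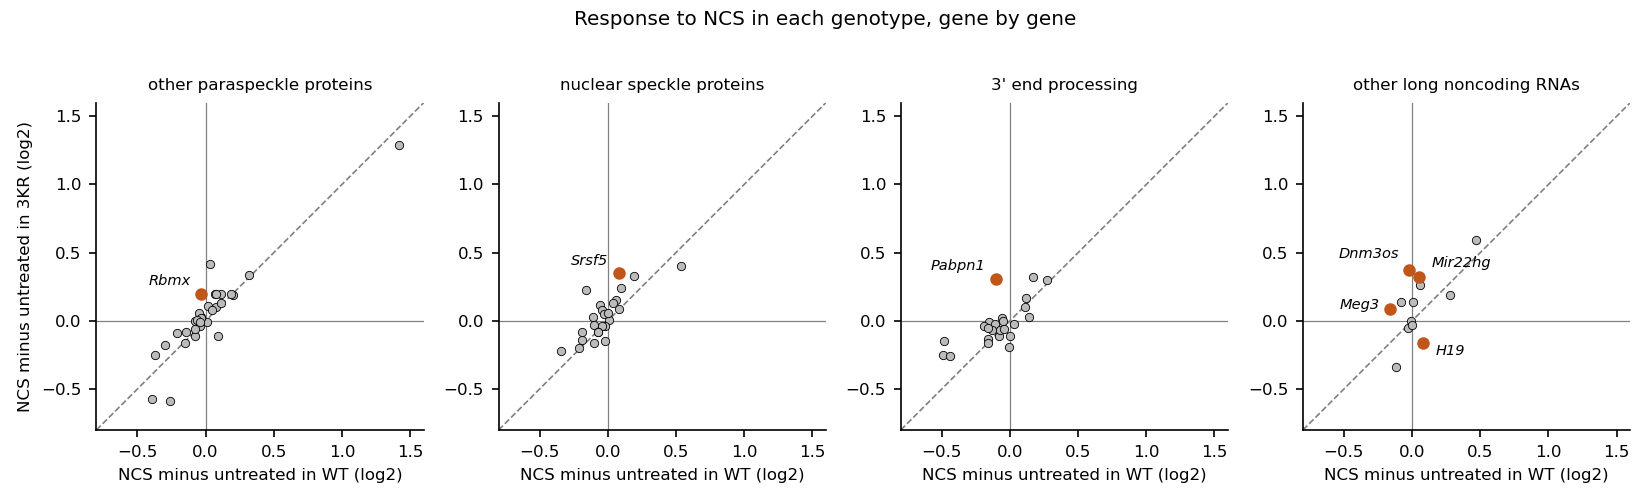
Log2 difference between NCS and no treatment in wild-type (x axis) and 3KR MEFs (y axis) for tested genes of 4 lists, with 1 point per gene and a dashed line where the responses are equal. The genes in colour differ in response at an edgeR FDR of 0.05, and all but H19 (-0.23) lie above the line.

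The machinery that cuts RNA 3′ ends, by polyadenylation or by RNase P, was represented by 24 genes. Without treatment 2 were lower in 3KR (Pabpn1 at -0.36 and Cstf3 at -0.15) and 22 did not pass, so that 8.33% were lower against 23.6% of all tested genes. With scaling by library total 4 were higher and 2 lower, while 3721 of all 15327 genes were higher and 3352 lower. The Cstf3 call was lost without untreated 3KR sample 2. After NCS 7 were higher (29.2%, against 22.9%) and 17 did not pass. Rpp14 and Rpp38, which encode subunits of RNase P, were higher by 0.37 and 0.46 and Cpsf3, the endonuclease of polyadenylation, by 0.18. In wild-type MEFs NCS raised 2 and lowered 9 (8.33% and 37.5%, against 14.3% and 12.4%), and the changes were -0.49 for Rpp14, -0.48 for Rpp38 and -0.19 for Elac2, the RNase Z gene. In 3KR MEFs Rpp38 and Elac2, at -0.15 and -0.04, did not pass, nor did their differences in response (edgeR FDR 0.194 and 0.276). In 3KR MEFs NCS raised 4 and lowered 5 (16.7% and 20.8%, against 15.8% and 15%), with Rpp14 at -0.25, Cpsf2 at -0.11 and Mettl16 at -0.16, against -0.08, which did not pass, and -0.16 for the last 2 in wild-type MEFs. The Cpsf2 call was lost without untreated or NCS-treated 3KR sample 2, and the Mettl16 call in 3KR without untreated 3KR sample 1 or 3 or NCS-treated 3KR sample 1 or 2. With scaling by library total, 1 was raised and 12 lowered in wild-type, and 3 raised and 7 lowered in 3KR MEFs. Over all 15327 genes that scaling gave 1464 raised and 2885 lowered in wild-type, and 1718 raised and 3275 lowered in 3KR MEFs. Clp1 rose by 0.27 and 0.30 and Pop1 by 0.17 and 0.32 in wild-type and 3KR MEFs, and the wild-type call of Pop1 was lost in 3 of 20 alternatives. Pabpn1, which binds poly(A) tails in the nucleus, had 848 ± 7.93 and 796 ± 66.2 normalized counts in wild-type MEFs and 664 ± 25.8 and 824 ± 30.4 in 3KR MEFs, without and with NCS (SD, n = 3). It was the only gene of the list past the threshold for the difference in response, at 0.41 (SE 0.08, edgeR FDR 0.00625).

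Of 18 other long noncoding RNA genes, 13 were matched and tested. Without treatment 4 were higher and 6 lower in 3KR (30.8% and 46.2%, against 22.1% and 23.6% of all tested genes), at a median of -0.12, and after NCS 5 were higher and 3 lower (38.5% and 23.1%, against 22.9% and 23.6%). H19, an imprinted RNA, was lower by -0.53 untreated and -0.76 after NCS (edgeR FDR 2.45e-17), while Zfas1 was higher by 0.45 and 0.58. Snhg12 was higher by 0.42 and 0.40 and Gas5 by 0.22 and 0.23, and Tug1 was lower by -0.16 and -0.19 and the X-linked Firre by -0.47 and -0.56. NCS raised 2 and lowered 1 in wild-type MEFs (15.4% and 7.69%, against 14.3% and 12.4%), and raised 6 and lowered 1 in 3KR MEFs (46.2% and 7.69%, against 15.8% and 15%). With scaling by library total 1 was raised and 1 lowered in wild-type and 3 were raised and 1 lowered in 3KR MEFs. All 15327 genes then gave 1464 raised and 2885 lowered in wild-type, and 1718 raised and 3275 lowered in 3KR MEFs. Airn rose by 0.47 and 0.59, and reads of Igf2r, which it overlaps on the other strand, cannot be told apart where the counting did not use strand. For the difference in response, 3 of the 13 were higher and 1 lower (23.1% and 7.69%, against 1.86% and 1.87% of all tested genes).

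Dnm3os, an antisense RNA within Dnm3, had 3467 ± 85.6 and 3440.5 ± 368 normalized counts in wild-type MEFs and 4451 ± 119 and 5748 ± 79.9 in 3KR MEFs, without and with NCS (SD, n = 3). Like Neat1, it was higher after NCS in 3KR, by 0.37, and its difference in response was 0.39 (SE 0.07, edgeR FDR 0.0013). Mir22hg was lower in untreated 3KR than in wild-type MEFs by -0.23 (edgeR FDR 0.000144) and differed by 0.04 after NCS, which did not pass (edgeR FDR 0.46). It changed with NCS by 0.05 in wild-type, which did not pass, and by 0.32 in 3KR MEFs, a difference in response of 0.28 (edgeR FDR 0.013). Meg3, an imprinted RNA, was lower in untreated 3KR MEFs by -0.22. With NCS it changed by -0.16 in wild-type and by 0.09 in 3KR MEFs (edgeR FDR 0.0401), a difference in response of 0.24 (edgeR FDR 0.00179). H19 moved the other way, by 0.08 in wild-type and -0.16 in 3KR MEFs, a difference of -0.23 (edgeR FDR 0.000324). The difference passed in all 19 alternatives, whereas the wild-type call (edgeR FDR 0.0284) was lost in 6 of 20, scaling by library total and the fit of 6 samples among them.

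The 12 p53 target genes listed were already known to respond in these libraries and serve only as a reference for the size of the change. NCS raised 11 in each genotype (91.7%, against 14.3% of all tested genes in wild-type and 15.8% in 3KR MEFs). The median was 0.75 in wild-type and 0.95 in 3KR MEFs, with Cdkn1a at 1.18 and 1.34 and Ccng1 at 1.01 and 1.35. In 3KR MEFs 11 of the 12 were lower than in wild-type without treatment (91.7%, against 23.6% of all tested genes). After NCS 10 were lower and 1 higher (83.3% and 8.33%, against 23.6% and 22.9%). The latter, Sesn2 (0.10, edgeR FDR 0.0497), was lost in 12 of 20 alternatives. For the difference in response 6 were higher (50%, against 1.86% of all tested genes), Ccng1 (0.34) and Cdkn1a (0.16) among them. Over 19 alternatives the difference of Ccng1 passed in all 19 and that of Cdkn1a in 15. The Neat1 change of 0.53 in 3KR was below the median of 0.95 there.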

How the data were processed

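mRNA-seq was analysed in 12 samples, 3 for each of 4 groups taken from the labels. The authors deposited raw read counts per Ensembl gene, neither normalized nor filtered. Their processing notes name TopHat, HTSeq, DESeq and mm9, without versions here, and the annotation release and strand setting of the counting are not given in the sources used here. Of the 37991 identifiers, 32919 were found in GENCODE M21 on GRCm38, the source of symbols and positions, and no mm9 coordinate is printed.

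Genes passing filterByExpr were scaled by TMM and fitted in edgeR 4.0.16 (R 4.3.3) as 1 model of all 12 samples with a coefficient for every group. Contrasts were tested by quasi-likelihood, with Benjamini-Hochberg adjustment over 15327 genes at 0.05. Normalized counts are counts divided by DESeq2 1.42.0 size factors. The biological coefficient of variation was 3.95%, and p-values measure only the spread between these samples. The scripts were tested on simulated data.

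The members, the gene lists and the tests were chosen with earlier results of these data known. Outside the 7 members, the genes named are up to 3 per list, comparison and direction with the lowest p past the threshold, the 3 nearest tested genes on each side of Neat1 and Malat1, and the 3 genes most correlated with each (log2 CPM with a prior count of 2, mean of at least 3). Some genes that fall under this rule are not reported here, and figures leave them out. Alternatives were DESeq2 size factors, library total scaling, the DESeq2 Wald test, the filter dropped or replaced by a minimum of 10 counts per sample, a fit limited to the 6 samples of a comparison, a replicate block, leaving out single samples and, added after seeing the data, both wild-type samples numbered 3 left out and the length of Neat1-202.

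Deviations from the group means of same-numbered untreated and NCS samples correlated at 0.267, 0.234 and 0.468 over 9602 genes in wild-type MEFs, which was taken as pairing. In 3KR MEFs they correlated at 0.00102, 0.0502 and 0.00241, which was not. The fit as reported held no block in either genotype. For NCS and the difference in response, the replicate block was fitted within each genotype, 3KR included. For genotype contrasts it used the number shared by both genotypes. Same-numbered wild-type and 3KR samples correlated at 0.0018, -0.0274 and -0.0262 untreated and at 0.0234, -0.0278 and -0.0305 after NCS.

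Sfpq overlaps Gm12940 on the same strand (at most 491 counts, against at least 10475 for Sfpq), and Hnrnpk overlaps Mir7-1 (at most 32) and, on the other strand, Rmi1 (at most 996, against at least 15031 for Hnrnpk).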

Additional observations from a re-analysis of the deposited data

Results flagged for a closer look

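For 11 genes named in the text, the NCS response in 3KR minus that in wild-type was past an edgeR FDR of 0.05. For Neat1 and Malat1 it was 0.57 and 0.20 on the log2 scale, which is a description and not a test, since this contrast was known when the genes were chosen. Among genes of paraspeckle and speckle proteins it was 0.24 for Rbmx and 0.26 for Srsf5, and for the poly(A)-binding Pabpn1 it was 0.41. Among the other long noncoding RNAs it was 0.39 for Dnm3os, 0.28 for Mir22hg, 0.24 for Meg3 and -0.23 for H19. For the p53 targets, already known to respond in these libraries and likewise given as a description, it was 0.34 for Ccng1 and 0.16 for Cdkn1a. The lists these genes come from were also chosen with results of these libraries known. Srsf5, Pabpn1, Dnm3os, Meg3, H19 and Ccng1 passed in all 19 alternatives for this difference, and Cdkn1a passed in 15. Rbmx was lost in 6 and Mir22hg in 1.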

How the results depend on the processing

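No log2 difference past the threshold changed sign under any alternative among the 7 members, the list genes and the neighbours, and the differences of Neat1 that passed the threshold did so under all of them. With the replicate block, genes called for the difference in response numbered 1379 in place of 572, and without both wild-type samples numbered 3 they numbered 1842. In the following, numbers are genes called, and causes were not tested. Of the 7 members, untreated genotype calls were 1 without a filter and 5 without both samples numbered 3 (2 in the fit as reported). Of all genes they were 7053 of 24639 and 7593 of 15565 (7007 of 15327 in the fit as reported). Calls for NCS in wild-type MEFs were 2 with library total scaling, 1 without a filter, 1 with a minimum of 10 counts, 2 with the replicate block and 2 without both samples numbered 3. Over all genes 4090 of 15327 passed as reported. In the same order the settings gave 4349 of 15327, 4130 of 24639, 4192 of 13433, 5239 of 15327 and 5083 of 15565. Calls for NCS in 3KR MEFs were 1 with library total scaling, 6 with only the 6 samples compared, 5 with the replicate block and 6 without both samples numbered 3. Over all genes 4721 of 15327 passed as reported. In the same order the settings gave 4993 of 15327, 6175 of 14691, 5801 of 15327 and 6187 of 15565. For the difference in response, other paraspeckle genes gave 6 with the block and 7 without both samples numbered 3. Speckle genes gave 2 with library total scaling, 3 with the DESeq2 Wald test, 3 with a minimum of 10 counts, 7 with the block and 10 without both samples numbered 3, and 3′ end genes gave 2 with the block and 3 without those samples. For this difference all genes gave 591 of 15327 with library total scaling, 659 of 15327 with the Wald test and 680 of 13433 with a minimum of 10 counts. Without both samples numbered 3, speckle genes also gave 13 and 14 between genotypes (untreated and NCS) and 15 and 20 for NCS (wild-type and 3KR). There all genes gave 7593, 7735, 5083 and 6187 of 15565. Untreated genotype calls of 3′ end genes were 6 with library total scaling (4 higher and 2 lower, in place of 0 and 2) and 4 without both samples numbered 3, and long noncoding RNAs gave 4 for NCS in 3KR MEFs with library total scaling. With that scaling the untreated genotype calls of all genes were 7073 of 15327.

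Leaving out 1 sample at a time, in the order untreated genotype, genotype after NCS, NCS in wild-type, NCS in 3KR and difference in response, gave 1 to 4, 2 to 5, 0 to 2, 1 to 4 and 1 to 2 members. All genes gave 6266 to 7339, 6275 to 7604, 3292 to 4604, 3788 to 5367 and 345 to 1159, with 1159 for the difference without untreated wild-type sample 3, 361 without NCS-treated wild-type sample 1, 357 and 345 without untreated 3KR samples 1 and 3, and 346 and 374 without NCS-treated 3KR samples 1 and 3. Other paraspeckle genes gave 10 to 13, 17 to 22, 9 to 13, 14 to 19 and 0 to 5. Speckle genes gave 6 to 9, 7 to 11, 6 to 12, 9 to 14 and 1 to 5. The 3′ end genes gave 2 to 5, 5 to 8, 7 to 13, 4 to 9 and 1 to 3, and long noncoding RNAs 9 to 10, 7 to 9, 2 to 4, 4 to 7 and 3 to 5. The lowest count of a member in any library was 1178, for Pspc1, and the intervals cover the spread between these samples only. Sex and genotype cannot be told apart.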
